A study of Mus musculus with 2 samples.

Results

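The carboxylesterases are serine hydrolases of the endoplasmic reticulum that split ester bonds in neutral lipids, retinyl esters and drugs. The 8 genes described were chosen by symbol from the 32285 in the gene list of both libraries: Ces1c, Ces1d, Ces1e, Ces1f, Ces1g, Ces2e, Ces2g, and Lipa, which is no carboxylesterase but the acid lipase that breaks down cholesteryl esters and triglycerides in lysosomes. The cells came from lungs of 3-month-old wild type C57BL/6 mice with no treatment and no control group, and were sorted live for the autofluorescence that retinoids emit under UV light. All of the mice were male by the published methods. A single group of 2 libraries was made with 10x Chromium 3′ chemistry, with no number of mice per library in the labels. Every comparison was therefore made between cell types inside those libraries. Its p-value covers only the scatter between the 2 libraries that is left after their common shift is removed, estimated over 5 groups of cells together.

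Mouse carboxylesterases lie in tandem clusters that arose by gene duplication, and many are best known from liver and intestine. Ces1d, also called triacylglycerol hydrolase, mobilizes stored triglyceride and has retinyl ester hydrolase activity in vitro. Retinyl esters are made by Lrat, lecithin retinol acyltransferase, and retinoid-storing fibroblasts carry both an enzyme that makes the ester and enzymes able to split it.

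The 2 libraries held 9669 and 10050 barcodes with 48762735 and 93970185 UMIs (unique molecular identifiers, each 1 captured RNA molecule), of which 9634 and 9988 cells had at least 200 genes and at most 10% mitochondrial UMIs. A cell entered a class only if it carried at least 3 UMIs of the marker genes of 1 class and fewer of every other: Col1a2, Mfap4 and Pdgfra for stromal cells, Cdh5, Pecam1 and Egfl7 for endothelial, Epcam, Cdh1 and Lamp3 for epithelial, and Ptprc, Laptm5 and Cd52 for immune cells. Stromal cells without a Dcn UMI were called alveolar fibroblasts (5805 and 5545 cells), those with at least 3 adventitial (1017 and 998), and those with 1 or 2 intermediate (823 and 895). The endothelial gate held 56 and 360 cells, the epithelial 930 and 101, and the immune 266 and 334. Library 2 stood apart in that 16.4% of its cells met 2 or more gates, against 4.36% in library 1, and these were left out. The libraries shared 23 barcode sequences. Independent markers followed the gates, though not cleanly: Cldn5 reached 5011 and 4061 CPM (counts per 1000000 UMIs of the group) in endothelial cells, Abca3 709.5 and 681.1 in epithelial cells, and Pi16 204.5 and 46.5 in adventitial against 0.597 and 0.309 in alveolar fibroblasts. C1qb had 1714.9 and 566.4 CPM in immune cells. The epithelial marker Ager, at 789.1 and 1443 CPM in epithelial cells, also reached 153.7 in endothelial and 69.5 in immune cells of library 2. Cldn18, also epithelial, reached 58.4 in endothelial cells of library 2. Col13a1 had 340.8 and 309.0 CPM in alveolar but still 211.7 and 224.7 in adventitial fibroblasts.

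The 5 Ces1 members lie side by side on the minus strand of chromosome 8 in GRCm38, from Ces1c (start 93099015, end 93131283) through Ces1d (93166068 to 93197838), Ces1e (93201218 to 93229619) and Ces1f (93256236 to 93279747) to Ces1g (93302369 to 93337308). Ces1d and Ces1e are separated by 3379 bases. Ces2e (104926260 to 104934672) and Ces2g (104961718 to 104969537) lie on the plus strand of the same chromosome, and Lipa on the minus strand of chromosome 19 (34492318 to 34527474). No exon of these 8 genes overlapped an exon of another gene in the GENCODE annotation. Because relatives of this kind can share reads, the last 500 bases of every annotated transcript were cut into all stretches of 100 bases, the length of a sequencing read. None of the stretches of Ces1d, Ces1e, Ces1f, Ces1g, Ces2e, Ces2g or Lipa occurred in a transcript of another gene, whereas up to 4.74% of those of Ces1c did.

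Of the 8 genes, 6 had an entry in the RefSeq promoter table (GRCm38.p6), and the 250 bases before the start are shown for Ces1e, Ces2g and Lipa, the members besides Ces1d that had enough UMIs to be tested between cell types. Ces1d and Ces1f had no entry. Capitals mark matches, on either strand, to a TATA box (TATAAA, present in 12.4% of all 32851 windows of this length), a CCAAT box (CCAAT, 33.8%), a GC box (GGGCGG, 32.7%), a nuclear receptor half-site (AGGTCA, 14.0%) or an E box (CACGTG, 6.02%), which is also the centre of the lysosomal CLEAR core (TCACGTGA, 0.785%). The windows run 5′ to 3′ and occupy chr8:93229620-93229869 on the minus strand for Ces1e, chr8:104961468-104961717 on the plus strand for Ces2g and chr19:34527475-34527724 on the minus strand for Lipa.
Ces1e: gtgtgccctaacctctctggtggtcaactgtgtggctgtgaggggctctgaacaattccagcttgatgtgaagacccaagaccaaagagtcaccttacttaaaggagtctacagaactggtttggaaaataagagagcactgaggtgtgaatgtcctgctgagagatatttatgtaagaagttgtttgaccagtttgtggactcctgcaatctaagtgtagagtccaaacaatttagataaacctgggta
Ces2g: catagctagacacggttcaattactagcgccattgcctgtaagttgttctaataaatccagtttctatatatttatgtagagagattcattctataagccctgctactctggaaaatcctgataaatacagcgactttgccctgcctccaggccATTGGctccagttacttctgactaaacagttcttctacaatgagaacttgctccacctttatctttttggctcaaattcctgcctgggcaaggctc
Lipa: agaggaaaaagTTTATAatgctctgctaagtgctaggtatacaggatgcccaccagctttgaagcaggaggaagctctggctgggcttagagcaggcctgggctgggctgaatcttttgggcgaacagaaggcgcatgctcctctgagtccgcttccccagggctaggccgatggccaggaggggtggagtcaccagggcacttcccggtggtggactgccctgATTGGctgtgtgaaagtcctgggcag
The Ces1e window held none of the 6 motifs and no CpG. That of Ces2g held 1 CCAAT box, in the reverse direction, whose first base lay 96 bases before the start, and 3 CpGs. That of Lipa held a reverse CCAAT box beginning 26 bases before the start, a reverse TATA box 239 bases before it and 5 CpGs, with a GC content of 58% against 44% for Ces1e and 42% for Ces2g. The median window of all genes had 6 CpGs and 52.4% GC.

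Ces1d was the member with by far the most UMIs, 56925 over all kept cells of both libraries, and it was high in alveolar fibroblasts and in epithelial cells. Its level in alveolar fibroblasts was 567.5 CPM in library 1 and 528.6 in library 2. In epithelial cells it was 427.6 and 380.8 CPM. In adventitial fibroblasts it was 134.3 and 211.6 CPM. By plain CPM the ranges of these 3 groups did not overlap and fell in this order in both libraries, but the order of alveolar and epithelial cells turned with the scaling, as given below. Intermediate fibroblasts, with 1 or 2 Dcn UMIs, lay between the other stromal groups at 416.0 and 430.4 CPM. Endothelial cells had 33.5 and 22.2 CPM, from 4 and 41 UMIs, and immune cells 6.84 and 3.31 CPM, from 6 UMIs in each library.

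**Figure D1:**
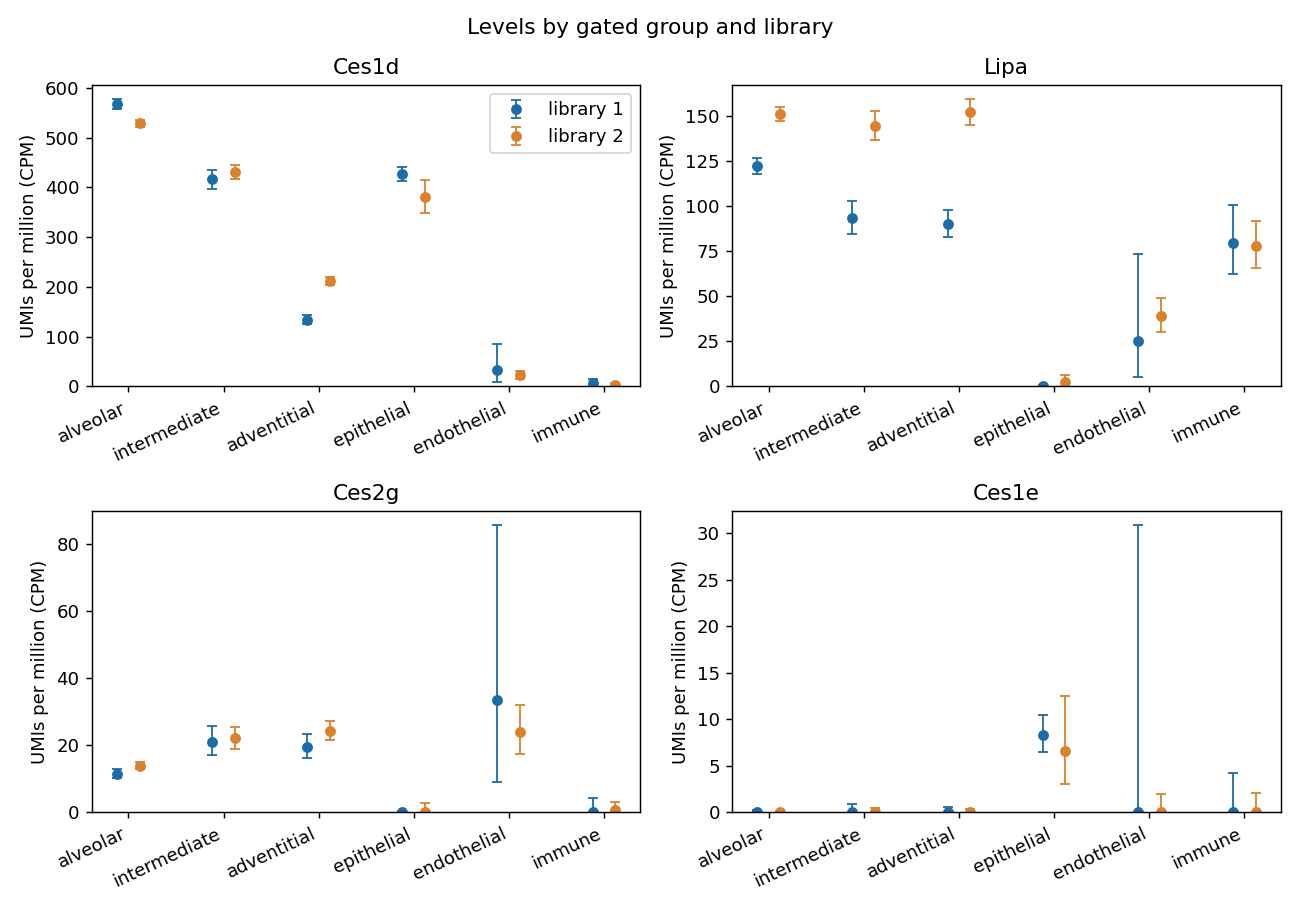
Level of Ces1d, Lipa, Ces2g and Ces1e (CPM, linear axes that differ between panels) in 6 gated groups of cells, blue for library 1 and orange for library 2; bars are exact 95% Poisson intervals, which cover counting error only. By plain CPM Ces1d was highest in the alveolar group (567.5 and 528.6), although the fitted difference from the epithelial group was −0.12 on the log2 scale. Lipa was near 0 in the epithelial group and Ces2g was listed at 0 there. Of the 6 groups drawn, which leave out barcodes of several gates, Ces1e was found almost wholly in the epithelial one.

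The difference between alveolar and adventitial fibroblasts was tested on the summed counts by the quasi-likelihood method of edgeR, blocking on the library, and p-values were adjusted over 13326 genes by Benjamini-Hochberg. Only 4 of the 8 members had enough UMIs to be tested, namely Ces1d, Ces1e, Ces2g and Lipa. Ces1e passed that filter only through its epithelial sums. Of these, 1 was higher in alveolar fibroblasts, 1 lower and 2 were not called, in a comparison that called 8.71% of all genes tested. Ces1d was 4.23-fold higher in library 1 and 2.50-fold higher in library 2 by CPM, and the fitted log2 difference was 1.64 (SE 0.234, adjusted p = 0.000116). Alveolar cells were shallower than adventitial ones, with medians of 3958 and 6545 UMIs against 6034 and 10655.5. Whether a cell carries a Dcn UMI depends on its depth, and the part of depth in this difference was not tested. When the cells so gated were thinned to 2000 UMIs, the share with a Ces1d UMI was 61.1% and 57.8% in alveolar against 18.6% and 25.8% in adventitial fibroblasts.

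Ces1d did not separate alveolar fibroblasts from epithelial cells. The fitted log2 difference was −0.12 (SE 0.228, adjusted p = 0.704, edgeR), whereas the plain CPM ratio was 1.33 in library 1 and 1.39 in library 2, so the direction depended on the scaling. The normalization of edgeR (TMM) lowered every log2 difference of alveolar over epithelial cells by 0.61 in library 1 and 0.49 in library 2. The 4 surfactant genes Sftpa1, Sftpb, Sftpc and Sftpd made up 28.6% and 23.4% of all epithelial UMIs. Without them Ces1d stood at 598.5 and 496.9 CPM in epithelial cells, beside 567.9 and 528.6 in alveolar fibroblasts, higher in library 1 and lower in library 2.

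Ces1d outside the fibroblasts was set against genes of alveolar fibroblasts. For 10 alveolar fibroblast genes, among them Tcf21, Npnt and Col13a1, the epithelial level was a median 0.264% of the alveolar level in library 1 and 0.431% in library 2, with 7.07% and 7.61% as the highest. For Ces1d it was 75.3% and 72.1%. Lrat, the other gene of retinyl ester turnover, stood at 0.351% and 1.35%. In endothelial cells, by contrast, Ces1d reached 5.90% and 4.20% of its alveolar level, where the 10 genes had medians of 3.66% and 2.76% and maxima of 16.2% and 9.36%. In immune cells it reached 1.21% and 0.626%, beside medians of 0.940% and 0.988%. The endothelial and immune levels of Ces1d lay within the range of the 10 genes, above their median in endothelial cells of both libraries. The part of free RNA in these counts was not tested.

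**Figure D2:**
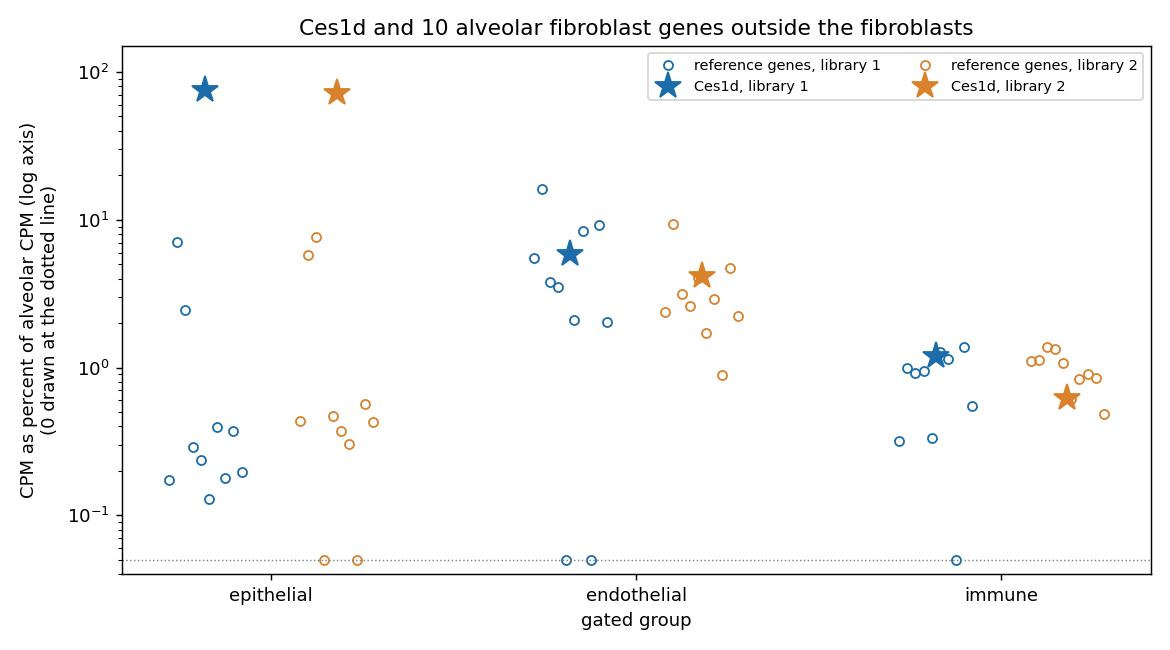
Level of Ces1d (stars) and of 10 alveolar fibroblast genes (open circles) in epithelial, endothelial and immune cells, each as a percent of its own CPM in alveolar fibroblasts of the same library, on a log axis with values of 0 drawn at the dotted line. In epithelial cells Ces1d stood at 75.3% and 72.1%, above all 10 genes (highest 7.07% and 7.61%), and in the other groups it lay among them.

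Markers of alveolar type 2 and type 1 cells were found together in the epithelial class. At least 3 UMIs were found in 929 of 930 cells of library 1 and in 96 of 101 of library 2 for Abca3, Lamp3 and Slc34a2 together, of which Lamp3 was also a gate gene. Alveolar type 1 markers reached 3 UMIs in 793 and 97 cells, so the 2 types could not be separated, and club cell markers did so in 76 and 4. Unthinned, 94.5% and 97.0% of epithelial cells held a Ces1d UMI at median depths of 9340.5 and 13627 UMIs. Of immune cells, 1.50% and 1.80% did at median depths of 3024 and 4552. At 2000 UMIs per cell the shares were 54.3% and 44.6% in epithelial against 1.08% and 1.29% in immune cells.

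The remaining comparisons of Ces1d were large. Over endothelial cells it was 17.0-fold and 23.8-fold higher in alveolar fibroblasts by CPM (log2 difference 4.73, SE 0.335, adjusted p = 2.75e-09, edgeR), and over immune cells 83.0-fold and 159.7-fold (6.64, SE 0.366, adjusted p = 5.41e-11). Restricting the classes to cells without a single UMI of another class gate raised the endothelial difference to 5.44. Epithelial cells exceeded endothelial cells by 4.85 on the log2 scale (SE 0.337, adjusted p = 2.62e-09) and immune cells by 6.76 (SE 0.368, adjusted p = 1.04e-10). These comparisons called far more genes than that between the fibroblasts. Against endothelial cells, 2 of the 4 members tested were higher in alveolar fibroblasts and 2 were not called, beside 33% of all genes tested called. Against epithelial cells 2 were higher, 1 lower and 1 not called, beside 51.1%, and against immune cells 2 were higher and 2 not called, beside 52.5%. For epithelial over endothelial cells 2 were higher and 2 lower, beside 40.4%. For epithelial over immune cells 2 were higher, 1 lower and 1 not called, beside 48%. The calls in the comparisons with epithelial cells include Ces1e, which passed the filter on low counts only through those cells.

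**Figure D3:**
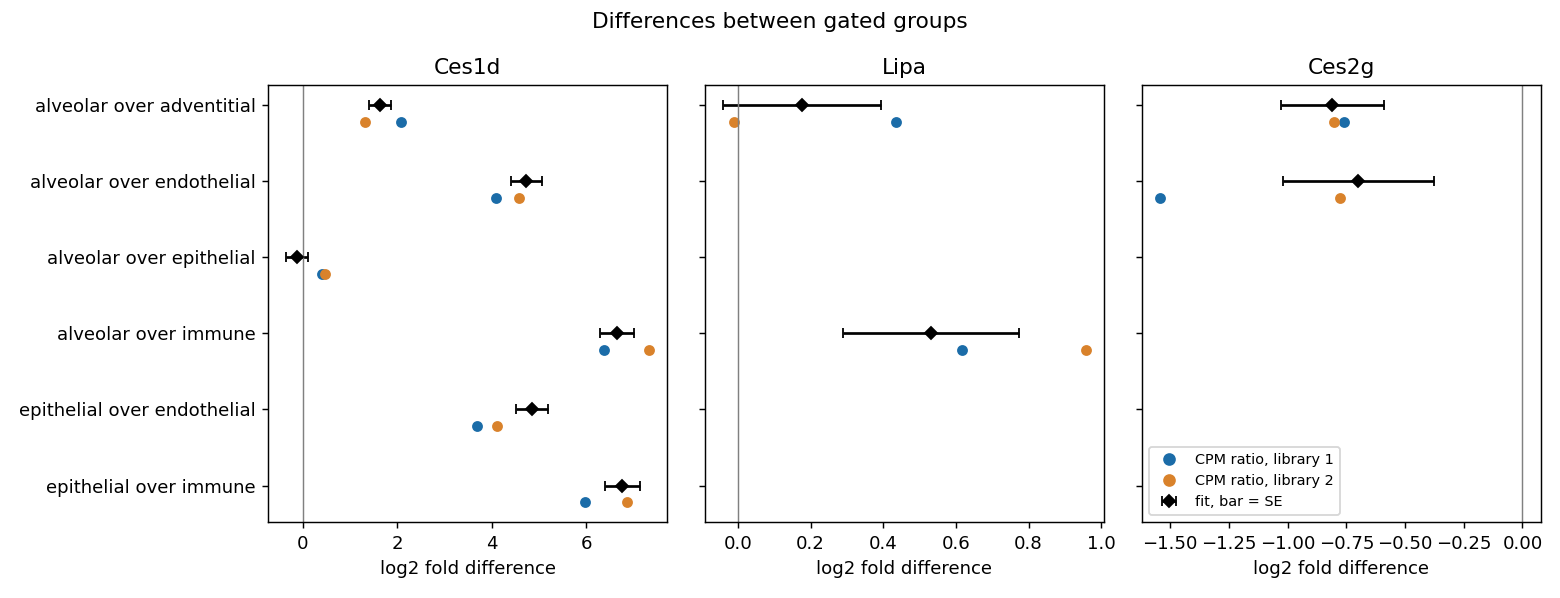
Log2 difference between gated groups for Ces1d, Lipa and Ces2g, with the edgeR estimate and its SE (black diamonds) and the CPM ratio of each library below it (blue and orange); axes differ between panels, and comparisons in which a group held 3 or fewer UMIs in a library are not drawn. Ces1d lay to the right of 0 except for alveolar over epithelial, where the fitted value was −0.12 and both CPM ratios were above 0.

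Among single cells, Ces1d was found in most alveolar fibroblasts. Of alveolar fibroblasts thinned to 2000 UMIs, 38.9% in library 1 and 42.2% in library 2 held no Ces1d UMI, and 1.83% and 1.54% held 5 or more. The mean was 1.13 and 1.07 UMIs and the variance was 1.36 and 1.44 times the mean, where random sampling of an even level gives a ratio of 1. Epithelial cells averaged 0.855 and 0.723 UMIs, with ratios of 1.18 and 1.33, and adventitial fibroblasts 0.261 and 0.377, with 1.55 and 1.50. In alveolar fibroblasts the level also moved with depth: when the cells were split by depth into 4 equal bins, the shallowest had 717.6 CPM and the deepest 520.0 in library 1, and 567.9 and 493.5 in library 2. The same held for epithelial cells, with 473.5 and 378.1 CPM in library 1 and 427.7 and 384.3 in library 2, where the fall was not steady. The part of depth in the level was not tested.

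**Figure D4:**
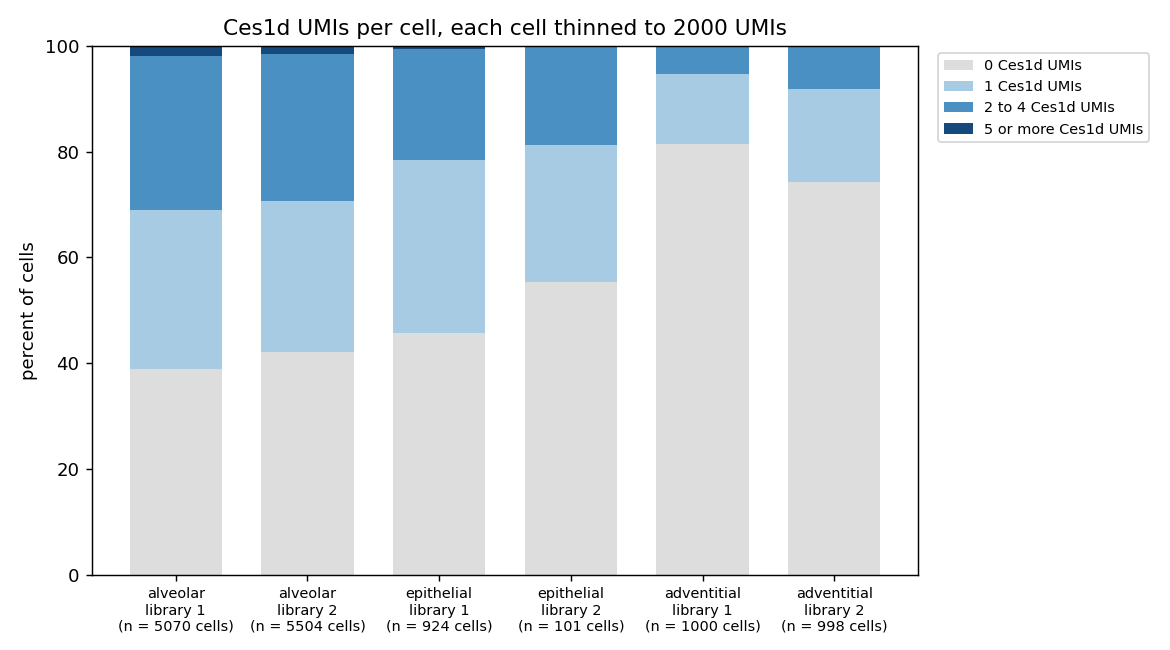
Share of cells (percent) with 0, 1, 2 to 4, or 5 or more Ces1d UMIs after each cell was thinned to 2000 UMIs, for 3 gated groups in each library, with the number of cells below each bar. Cells without a Ces1d UMI made up 38.9% and 42.2% of alveolar fibroblasts and 81.4% and 74.2% of adventitial ones.

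The study sorted cells for stored retinoid, so the overlap of Ces1d with Lrat was counted fibroblast by fibroblast. In the stromal cells as deposited, 3265 of 7645 in library 1 and 2645 of 7438 in library 2 held UMIs of both genes. Depth raises such counts, and the comparison was therefore made in alveolar fibroblasts thinned to 2000 UMIs, 5070 and 5504 cells after 735 and 41 shallower ones were left out. A Ces1d UMI was found in 62.8% of Lrat-positive cells (exact 95% binomial interval 60.7 to 64.9) and 60.0% of Lrat-negative cells (58.3 to 61.8) in library 1. In library 2 the shares were 60.1% (56.8 to 63.4) and 57.4% (55.9 to 58.8). The difference was 2.78 and 2.73 percentage points, a mean of 2.76 ± 0.036 (SD, n = 2 libraries), and it rose to 6.46 and 4.15 points without thinning. The SD does not cover counting error, and the intervals of the 2 shares overlapped in each library. It was 1.96 at 4000 UMIs per cell and 1.63 without thinning, so the closeness of the 2 values at 2000 UMIs is no measure of precision. Cells with both genes made up 24.9% and 9.57%, where the product of the single shares is 24.3% and 9.21%. Cells are not replicates, and no test was made.

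The odds ratio of Ces1d with Lrat was 1.12 in each library. With the 10 alveolar fibroblast genes it ranged from 1.01 to 2.33 in library 1 (median 1.34) and from 1.004 to 2.18 in library 2 (median 1.27). Npnt, which encodes the matrix protein nephronectin, gave the highest values, 2.33 and 2.18, and Lipa gave 1.03 and 1.17. Lrat itself with the same 10 genes had median odds ratios of 1.09 and 0.989, with the highest at 1.26 and 1.30. Of 6 genes that mark adventitial fibroblasts, 4 had odds ratios below 1 with Ces1d in both libraries among these Dcn-negative cells, 0.302 and 0.345 for Igfbp4, 0.492 and 0.468 for Col14a1, 0.621 and 0.712 for Mfap5, and 0.813 and 0.862 for Dpt. Serpinf1, found in few cells, gave 0.344 in library 1 and 1.06 in library 2, and Pi16 was found in 5 cells and 1 cell. Mfap5 and Dpt were not confined to adventitial cells: 27.0% and 28.4% of these alveolar cells held both Mfap5 and Ces1d, and 20.7% and 22.6% both Dpt and Ces1d. Among adventitial fibroblasts Mfap5 (1.11 and 1.32) and Dpt (1.08 and 1.15) had odds ratios above 1 with Ces1d. Igfbp4, Col14a1, Serpinf1 and Pi16 stayed below 1 there in both libraries. Of Pi16-positive adventitial cells 1.89% and 2.44% held a Ces1d UMI, against 21.8% and 26.8% of Pi16-negative ones. With the 10 alveolar fibroblast genes the median odds ratio in adventitial cells was 2.06 and 1.53, with 8 and 9 genes above 1. The highest were 5.33 and 4.21, both with Slc7a10. Ces1d was thus uneven within the adventitial gate, and its level there is an average over unlike cells. In adventitial fibroblasts Ces1d was found in 22.6% of Lrat-positive and 15.3% of Lrat-negative cells in library 1, and in 26.2% and 25.6% in library 2. Between the groups, moreover, Lrat was lower in alveolar than in adventitial fibroblasts (296.4 and 108.6 against 364.9 and 232.0 CPM, log2 difference −0.73, SE 0.210, adjusted p = 0.0364, edgeR), the opposite direction to Ces1d. That call was lost with DESeq2 (adjusted p = 0.448), without the library block (0.996) and with 1 or 2 Dcn UMIs counted as alveolar (0.0863).

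**Figure D5:**
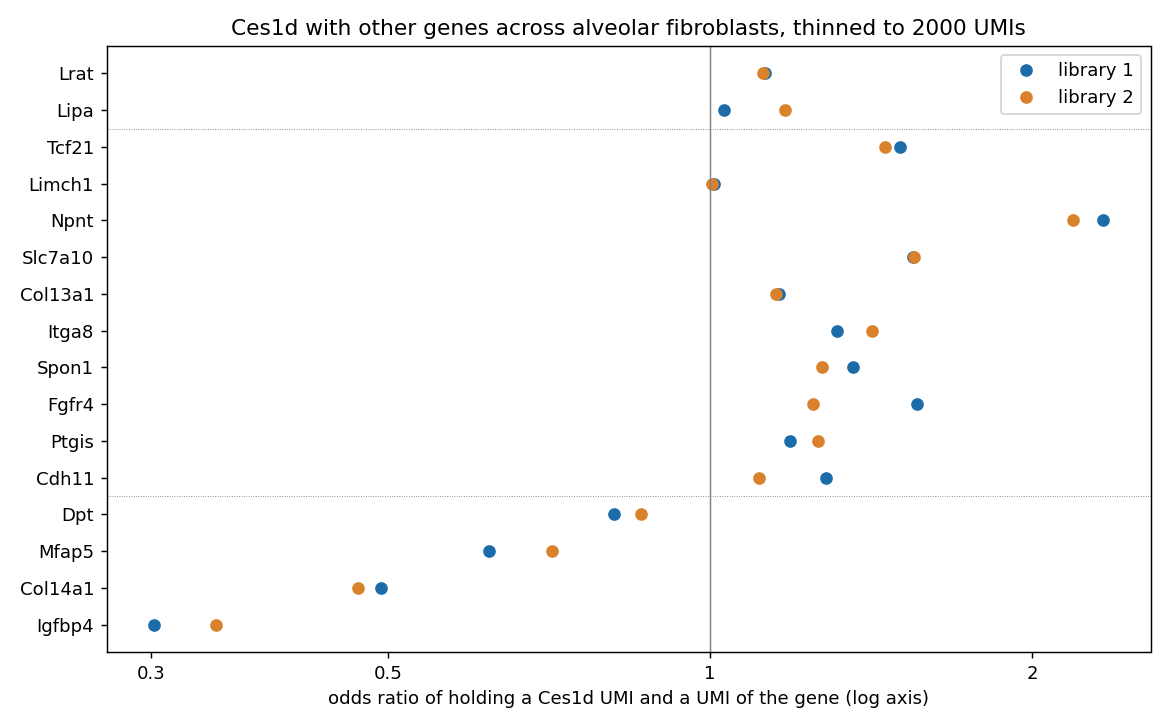
Odds ratio of holding a UMI of Ces1d together with a UMI of each gene listed (log axis) across alveolar fibroblasts thinned to 2000 UMIs, blue for library 1 and orange for library 2; dotted lines separate Lrat and Lipa, 10 alveolar fibroblast genes and 4 of 6 adventitial genes (Serpinf1 and Pi16, found in few cells, are not drawn). Lrat stood at 1.12 in both libraries, Npnt at 2.33 and 2.18, and Igfbp4 at 0.302 and 0.345.

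Lipa was present in stromal and immune cells and nearly missing from epithelial cells. Its level was 122.3 and 151.0 CPM in alveolar, 93.4 and 144.6 in intermediate and 90.4 and 152.1 in adventitial fibroblasts. The alveolar and adventitial ranges overlapped, with a log2 difference of 0.18 (SE 0.217, adjusted p = 0.763, edgeR). In immune cells it was 79.8 and 77.8 CPM, below both alveolar values, although the difference did not pass the test (0.53, SE 0.242, adjusted p = 0.0745) unless genes of low count were kept in the fit (0.63, adjusted p = 0.0225). In endothelial cells it was 25.1 CPM from 3 UMIs and 39.0 CPM from 72 UMIs, and alveolar fibroblasts exceeded them by 2.21 on the log2 scale (SE 0.308, adjusted p = 1.49e-05).

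In epithelial cells only 2 UMIs of Lipa were found in library 1 and 3 in library 2, or 0.231 and 2.20 CPM. The ratio of alveolar to epithelial CPM was 529.0 in library 1 (exact 95% interval 146.3 to 4370) and 68.7 in library 2 (23.5 to 333.3), and the difference was called (adjusted p = 1.00e-10, edgeR). Epithelial cells were also lower than endothelial (adjusted p = 8.89e-07) and immune cells (adjusted p = 1.65e-09). Among immune cells divided by finer markers, monocytes had 107.2 and 109.7 CPM from 34 and 43 UMIs. B cells had 2 and 1 UMIs and neutrophils 3 and 2, too few for a level to be compared.

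Ces2g, of the second cluster, was found in stromal and endothelial cells and not in epithelial cells. Adventitial fibroblasts had 19.4 and 24.3 CPM, intermediate ones 21.1 and 22.1, and alveolar ones 11.5 and 13.9. Alveolar fibroblasts were thus at 0.591 and 0.573 of the adventitial level, a log2 difference of −0.81 (SE 0.218, adjusted p = 0.0264, edgeR) opposite in sign to that of Ces1d. The call was lost with DESeq2 (adjusted p = 0.107), without the library block (0.403) and when cells with 1 or 2 Dcn UMIs were counted as alveolar (0.0839). Endothelial cells had 33.5 CPM from 4 UMIs and 23.8 CPM from 44 UMIs. Both lay above the alveolar values, but the log2 difference of alveolar over endothelial cells was not called (−0.70, SE 0.320, adjusted p = 0.110, edgeR).

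No UMI of Ces2g was found in 8650646 and 1365441 epithelial UMIs. Against the 3 UMIs that a count of 0 allows per library, alveolar fibroblasts were at least 33.1-fold higher in library 1 and at least 6.33-fold in library 2, and endothelial cells at least 96.5-fold and 10.8-fold. Both differences were called by edgeR (adjusted p = 1.70e-07 and 4.44e-07). Immune cells held 0 and 1 UMI, and alveolar fibroblasts were at least 3.36-fold higher in library 1 and 25.2-fold in library 2 (4.50 to 997.0, adjusted p = 3.31e-05). General capillary cells, gated by Plvap, Kit and Aplnr, accounted for 3 and 10 of the endothelial UMIs. Of the rest, 25 in library 2 (110.0 CPM) came from 44 cells gated as aerocytes by Car4, Ednrb and Fibin, a group too small in library 1 (11 cells, 1 UMI) to pass the rule of 20 cells and named only after its values were seen.

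Ces1e, known as egasyn for holding beta-glucuronidase in the endoplasmic reticulum, was found in epithelial cells. It gave 72 UMIs (8.32 CPM) in library 1 and 9 UMIs (6.59 CPM) in library 2, and 7.10% and 6.93% of epithelial cells held one, against 0.0172% and 0% of alveolar fibroblasts. Over alveolar, adventitial, endothelial and immune cells together only 1 UMI was found, in an alveolar fibroblast of library 1. A further 17 of the 90 Ces1e UMIs of library 1 lay in barcodes that met 2 or more gates. In library 2 these were 24 of 33, so its level rests on a minority of them. The ratio of epithelial to alveolar CPM was 195.0 in library 1 (33.9 to 7809) and at least 85.2 in library 2, a called difference (adjusted p = 1.07e-06, edgeR). Against adventitial fibroblasts, which held none, it was at least 17.6-fold and 25.4-fold. Against endothelial and immune cells the calls (adjusted p = 0.00759 and 0.00238) were lost with DESeq2 (0.246 and 0.152), and the counting bounds were low, at least 3.98-fold for immune cells in library 2 and 2.43-fold in library 1. For endothelial cells the bound was 4.06-fold in library 2, and the 119534 endothelial UMIs of library 1 gave a bound of 0.332, which sets no direction.

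The other 4 members had too few UMIs to be tested. Ces1g, a liver carboxylesterase that acts on very low density lipoprotein lipid, gave 33 and 13 UMIs in alveolar and 4 and 24 in adventitial fibroblasts. Alveolar over adventitial CPM was therefore 2.23 in library 1 and 0.162 in library 2, without a common direction. Ces1g was found in 8 UMIs of epithelial cells in library 1 and none in library 2. Ces2e gave 6 UMIs in endothelial cells of library 2 (3.25 CPM) and none in any other class. A further 48 of the 54 Ces2e UMIs of library 2 lay in barcodes that met 2 or more gates, 36 of them in the 931 barcodes with both stromal and endothelial markers, whose median depth was 14766 UMIs. Ces1f gave 8 UMIs in all. Ces1c, the carboxylesterase that mouse liver secretes into plasma, gave 0 UMIs in every group, which allows a share of cells with a UMI of up to 0.0517% and 0.0541% of alveolar fibroblasts and sets no limit on the share expressing the gene below detection.

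The 12 remaining carboxylesterases of the gene list did not reach the level needed for testing either. Ces2b gave 31 UMIs and Ces2c 20 over all kept cells, Ces5a 3 and Ces1a 2, and the other 8 gave none. Most UMIs of Ces2b, 23 of 27 in library 2, lay in barcodes of 2 or more gates.

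Of 10 other lipid hydrolases and their cofactors 8 were tested, and between alveolar and adventitial fibroblasts 3 were higher, 1 lower and 4 not called, beside 8.71% of all genes called, with a median log2 difference of 0.42 beside 0.03 over all genes tested. The endothelial lipase gene Lipg (2.28), the adipose triglyceride lipase gene Pnpla2 (0.83) and the hormone-sensitive lipase gene Lipe (0.69) were higher and the lipoprotein lipase gene Lpl (−1.57) lower. With DESeq2 1 was called higher and 0 lower, and without the library block 0 were called by edgeR, with 4 at an unadjusted p under 0.05. Between alveolar fibroblasts and epithelial cells 2 were higher, 4 lower and 2 not called, beside 51.1% of all genes called. The median was −1.12 beside 0.11 over all genes. With DESeq2 2 were higher and 3 lower, and without the library block 1 and 3. Without any UMI of another class gate 2 were higher and 6 lower. Nceh1, a neutral cholesteryl ester hydrolase, was lower in alveolar fibroblasts by this comparison (−6.29), the reverse of Lipa, and the lipase inhibitor G0s2 was higher (6.60).

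All 12 genes of the lysosome list were tested. Between alveolar and adventitial fibroblasts 0 were called by edgeR or DESeq2, with 1 at an unadjusted p under 0.05 by edgeR and 2 by DESeq2. Between alveolar fibroblasts and epithelial cells 6 were higher, 3 lower and 3 not called, beside 51.1% of all genes called. The median was 0.50 beside 0.11. With DESeq2 4 were higher and 3 lower, and without the library block 3 and 2. Psap (2.99) and Ctsl (2.71) were higher in alveolar fibroblasts. The cholesterol transporters Npc2 (−4.06) and Npc1 (−2.05), which export the cholesterol that Lipa frees, were lower. Between alveolar fibroblasts and immune cells 3 were higher, 7 lower and 2 not called, beside 52.5% of all genes called. The median was −0.71 beside 0.18. With DESeq2 2 were higher and 7 lower, and without the library block 2 and 5.

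The genes whose pattern over the groups most resembled that of Ces1d or Lipa were ranked by Pearson correlation of log2(CPM + 1) over the 10 sums of 5 groups and 2 libraries, among 8793 genes of at least 10 CPM. The sums share libraries, and the coefficients are a description. For Ces1d the genes were Mme (0.99), Suclg1 (0.98), Tmem97 (0.97), Selenbp1 (0.97) and Tst (0.96). The coefficient ignores the size of a change: Suclg1 ran only from 152.7 and 149.3 CPM in alveolar fibroblasts to 84.4 and 80.5 in immune cells. Mme, the membrane metalloprotease neprilysin, had 185.3 and 246.4 CPM in alveolar fibroblasts, 292.5 and 251.9 in epithelial and 2.28 and 1.65 in immune cells. For Lipa they were Fam49a (0.99), Coq10b (0.99), Emp3 (0.98), Zeb2 (0.97) and Sh3pxd2b (0.97). Zeb2, a transcriptional repressor, had 229.6 and 233.7 CPM in alveolar fibroblasts and 0.462 and 2.20 in epithelial cells. Across thinned alveolar fibroblasts the correlations with Ces1d were weak and in sparse counts: 17 of 2484 genes reached 0.1 in both libraries, led by Hsd11b1, which regenerates active glucocorticoid (0.188 and 0.199), Fmo2 (0.155 and 0.158), Fn1 (0.158 and 0.152), Npnt (0.148 and 0.141) and Gpx3 (0.133 and 0.136). Lrat stood at 0.025 and 0.021.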

How the data were processed

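UV-positive lung cells of 2 libraries were sequenced on separate occasions. The authors deposited filtered matrices of raw UMI counts per gene and barcode (Cell Ranger 5.0.1 and mm10 per the submitters' processing notes; the annotation release was not given in the sources used here). The genes and lists were chosen with earlier results of these data known, and no list was tested as a set. From the counts, UMIs were summed per gated group and library with Python 3.11.15. Groups were compared with edgeR 4.0.16 (quasi-likelihood, TMM, filterByExpr, library as a block, two-sided, adjusted p under 0.05). The library pairs the groups because both were captured in the same library. All 5 groups shared a single estimate of the spread for each gene. SEs were taken from the F statistic. The study's own test over cells was not used. No doublet caller was run; barcodes meeting 2 or more gates were left out. Intervals (exact Poisson or Clopper-Pearson, 95%) and the 3-count floor cover counting error only. A ratio to that floor takes the higher group at its observed level and leaves out the counting error of that level. Counts are tags of the 3′ end, not divided by length, so levels are not ranked between genes. Other genes were named by a rule: family and list members, Lrat, reference genes, and the 5 with the highest correlation. Alternatives were DESeq2 1.42.0, its size factors, no filter, no block, stricter gates, 5% mitochondrial limit, other Dcn limits, other thinning and single libraries.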

Additional observations from a re-analysis of the deposited data

Results flagged for a closer look

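Counts of 5 carboxylesterases outside the tests exceeded the 3 UMIs that a count of 0 allows, over all kept cells of both libraries: 107 for Ces1g, 55 for Ces2e, 31 for Ces2b, 20 for Ces2c and 8 for Ces1f. There were no control samples to set them against.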

How the results depend on the processing

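Of 197 recomputed differences of single members, 181 were counted as unchanged, 5 lost the call, 1 gained it and 10 moved. Unchanged meant the same side of the threshold or, for a single library, a move smaller than the spread between libraries. Direction was not checked where neither fit was called. All 10 that moved set the plain CPM ratio of a single library against a fitted difference that includes the TMM scaling. The part of the scaling in these moves was not tested. No called difference changed sign. For alveolar over adventitial fibroblasts the number of members called fell from 2 to 1 with DESeq2, without the replicate block and with 1 or 2 Dcn UMIs counted as alveolar, the call lost being Ces2g each time. The number of all genes called in that comparison fell from 1161 to 617 with DESeq2 and to 254 without the replicate block; elsewhere both counts stayed within 1.5 times. The mean difference in Ces1d share between Lrat-positive and Lrat-negative alveolar fibroblasts, 2.76 points, was 2.00 at 1000 UMIs per cell, 2.97 at 4000 (4.36 in library 1 and 1.59 in library 2), 5.30 without thinning, 2.24 without any UMI of another class gate and 2.25 with 1 or 2 Dcn UMIs counted as alveolar, and ranged from 2.73 to 2.78 at 2000 UMIs when a library was left out. The cause was not tested. A single library leaves no residual degrees of freedom, so only CPM ratios were given without the other. Leaving out the surfactant genes was added after the data were seen. The 119534 endothelial UMIs of library 1 limit every endothelial value there.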
